A study of Nothobranchius furzeri with 8 samples.

Results

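Brain small RNA of Nothobranchius furzeri, the turquoise killifish, an annual fish with a very short life span, was examined for 2 miRNA families, mir-34 and mir-449. They were chosen by name, with earlier results of these data known. The table of counts held 324 features (235 named families and 89 predicted miRNAs). Both families were among the 212 features with enough counts to test. The table covers 8 libraries from total RNA of male fish of the strain MZM-04/10p, for which no treatment is named, with 4 libraries from fish aged 6 weeks and 4 from fish aged 26 weeks. The older libraries carry the number 22 in their titles, and the age label of 26 weeks was followed. The titles number the libraries I to IV at each age. Separate animals are not stated for them, so a p-value here reflects only how far these samples differ, which may be technical.

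In vertebrates miR-34 and miR-449 share a seed, the stretch near the 5′ end of a miRNA that pairs with its target transcripts, and are therefore thought to act on overlapping sets of targets. In mammals miR-34a is a direct transcriptional target of the tumour suppressor p53 and lowers regulators of the cell cycle and of cell survival, while miR-34b, miR-34c and miR-449 are abundant in cells with many motile cilia, where they repress the centriolar protein CP110. In the brain such cells line the ventricles as ependyma and cover the choroid plexus, and in Drosophila loss of mir-34 leads to degeneration of the ageing brain. Counts are per family, with paralogues and arms combined in a way the labels do not describe, so p53-linked and cilia-linked copies of mir-34 could not be separated, and mature sequences of these killifish families are not shown here.

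Both families were detected in every library at moderate levels, and neither differed between the ages by more than the spread between libraries. Levels are given as CPM (counts scaled to the library size) with TMM factors, an edgeR correction for differences in library composition. At 6 weeks mir-34 stood at 367 ± 164 CPM and mir-449 at 280.2 ± 57.4 CPM, and at 26 weeks at 428 ± 134 and 316 ± 116 CPM (mean ± SD, n = 4 per age). By mean level over the 8 libraries mir-34 was rank 69 and mir-449 rank 75 of 212 tested features, and together they made up less than 0.1% of the counts in each of the libraries. Adapter ligation favours some small RNAs over others, so a level is better compared across libraries than between families.

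For mir-34, the family with the p53-regulated member, the libraries I to IV at 6 weeks gave 2014, 941, 1741 and 691 counts, which were 578, 265, 412 and 212 CPM. At 26 weeks the libraries I to IV gave 2202, 1330, 2166 and 1548 counts, or 591, 270.2, 458 and 393 CPM. The ages overlapped over most of their range, and the highest library of each age was number I, followed by number III. The highest library exceeded the lowest 2.73-fold at 6 weeks and 2.19-fold at 26 weeks.

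For mir-449, the family of multiciliated cells, the libraries I to IV at 6 weeks held 833, 1012, 1002 and 1171 counts, corresponding to 239, 285, 237 and 359.6 CPM. Those at 26 weeks held 780, 1299, 2255 and 1238 counts, corresponding to 209, 264, 477 and 314 CPM. The libraries of the ages overlapped here too, and the 26-week library III alone lay above all 4 younger libraries. It lay outside the range of 209 to 314 CPM of the other older libraries.

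**Figure D1:**
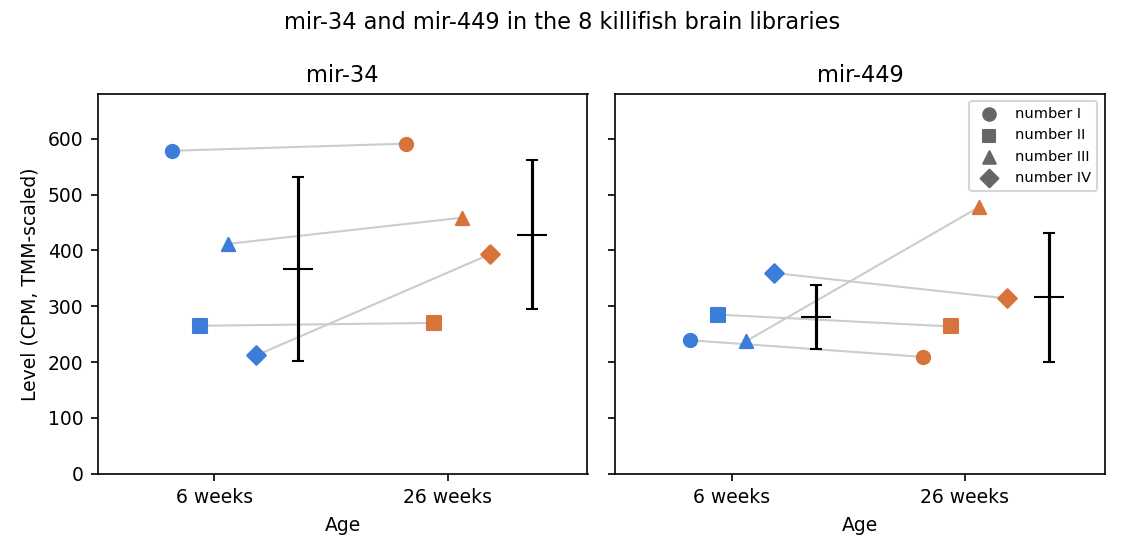
Level of mir-34 (left) and mir-449 (right) in CPM against age. Each point is a library, with the shape giving its number, grey lines join libraries of the same number, and bars show mean ± SD (n = 4 per age). For mir-34 the libraries numbered I are highest at both ages, at 578 and 591 CPM, and for mir-449 the 26-week library III is highest at 477 CPM.

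In the quasi-likelihood test of edgeR, adjusted by Benjamini-Hochberg over all 212 features, the log2 fold change from 6 to 26 weeks was 0.22 ± 0.35 for mir-34 and 0.17 ± 0.27 for mir-449 (± SE, adjusted p = 0.720 for each). The older levels corresponded to 1.17-fold and 1.13-fold of the younger level, and the sign for mir-449 was reversed with total counts alone (log2 -0.068) and without the 26-week library III (log2 -0.023). The 95% interval ran from 0.676-fold to 2.01-fold for mir-34 and from 0.735-fold to 1.73-fold for mir-449. Both intervals include no change, and with 4 libraries per age true changes within these limits were not excluded. As background, 14.2% of the tested features passed an adjusted p of 0.05 in this comparison (22 higher and 8 lower), and the CPM of the ages did not overlap for 21.7%. Neither mir-34 nor mir-449 belonged to these groups. For scale, mir-29, an ageing-linked family that regulates extracellular matrix transcripts, rose 3.23-fold, which lies above both intervals.

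The libraries of the same number moved little for mir-34 in 3 of 4 pairs. From 6 to 26 weeks its log2 CPM differed by 0.031 for number I, 0.027 for number II and 0.15 for number III, against 0.89 for number IV. For mir-449 the difference was -0.19 for number I, -0.11 for number II and -0.19 for number IV, against 1.01 for number III. The positive mean change of each family thus came largely from 1 pair, a different pair for each. With the number entered as a block, the share of all features called was 27.8%, and the log2 change was 0.27 ± 0.18 for mir-34 (edgeR, Benjamini-Hochberg adjusted p = 0.293, 95% interval -0.17 to 0.71) and 0.12 ± 0.24 for mir-449 (adjusted p = 0.734, interval -0.45 to 0.69).

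The spread of mir-34 between libraries of an age was large for its depth. Counting error alone was between 2.11% and 3.80% of a value for these families. The coefficient of variation (SD as a percentage of the mean) was 44.8% at 6 weeks and 31.2% at 26 weeks for mir-34, and 20.5% and 36.6% for mir-449. Averaged over the ages, mir-34 was the 9th and mir-449 the 22nd most variable of the 94 tested features with a mean of at least 100 CPM, whose median was 17.1%. A test of the library number itself, chosen after the values were seen, gave an unadjusted p of 0.0123 and an adjusted p of 0.0937 for mir-34 in the blocked fit (edgeR, Benjamini-Hochberg). For mir-449 the adjusted p was 0.445, and 8.49% of the tested features passed, so neither family was called for the number. Between ages, deviations from the age mean in libraries of the same number correlated by 0.77 for mir-34 and -0.056 for mir-449. These were ranks 60 and 136 of 164 features with a mean of at least 10 CPM, whose median was 0.62. Following the number was thus common among features and not particular to mir-34. The TMM factor was highest in library I at each age, at 1.16 and 1.11. It was 1.02 to 1.09 in the other younger and 0.86 to 0.88 in the other older libraries. What a number stands for is not given in the labels.

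Since the families are known to share a seed, their levels were also summed. The sum stands for miRNA with that seed only as far as ligation favours both alike and the counts come from the arm that carries it, which cannot be seen per family. The sum in libraries I to IV was 818, 550.1, 649 and 572 CPM at 6 weeks and 800.4, 534, 936 and 707 CPM at 26 weeks. It averaged 647 ± 121 CPM in the younger and 744 ± 169 CPM in the older libraries (SD, n = 4 each), with ranges that overlapped. The 26-week library III held the largest sum and the 26-week library II the smallest.

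**Figure D2:**
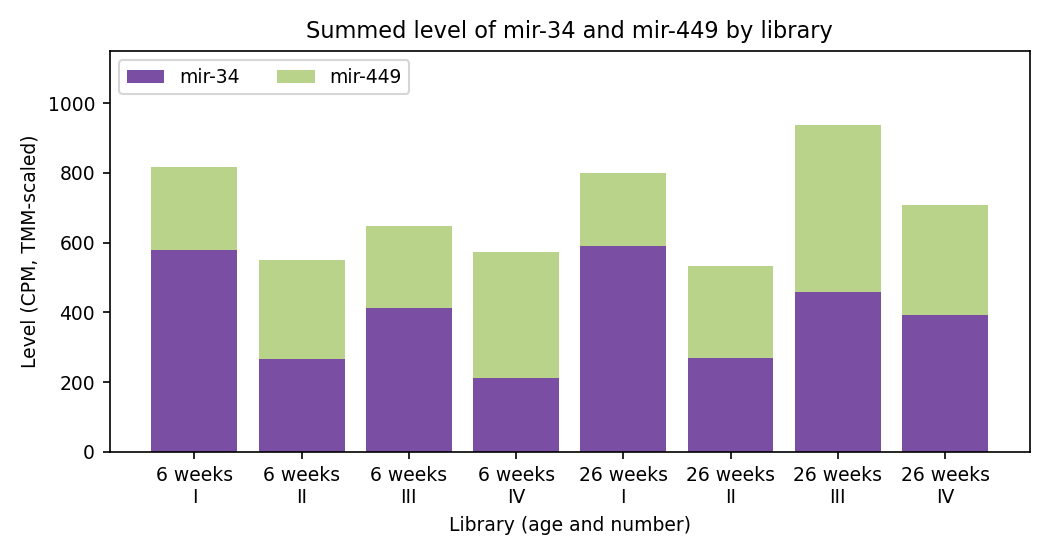
Summed level of mir-34 (purple) and mir-449 (green) in CPM for each library, ordered by age and number. The sum lies between 534 and 936 CPM, and the part of mir-34 is largest in the libraries numbered I, at 70.7% and 73.8% of both families.

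The make-up of the sum varied between libraries. Of the counts of both families, mir-34 took 70.7%, 48.2%, 63.5% and 37.1% in libraries I to IV at 6 weeks. At 26 weeks it took 73.8%, 50.6%, 49.0% and 55.6%. The libraries numbered I held the highest share at each age, and the 6-week library IV the lowest of all. As the ratio within a library does not depend on scaling, it also tests whether the age change of the families differed: the log2 ratio of mir-34 to mir-449 was 0.30 ± 0.91 in the younger and 0.45 ± 0.72 in the older libraries (SD, n = 4 per age; p = 0.8286 by a two-sided exact permutation test, where 4 against 4 can give 0.0286 at the smallest). This difference, 0.15, became -0.21 when the 6-week library IV was left out and -0.20 when the 26-week library I was.

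No joint rise and fall of the families was seen. Whether reads could be shared between them in counting is not given in the labels, which also limits their ratio and shares. Over the 8 libraries Pearson's r between their log2 CPM was -0.33 (exact permutation p = 0.429) and Spearman's rho was -0.52 (exact permutation p = 0.197), the only relation between members that was computed. Without the 2 libraries farthest from the median of mir-34, the 6-week libraries II and IV, r was -0.19 (n = 6, exact permutation p = 0.692). The value rested on few libraries: r was -0.79 without the 26-week library III (exact permutation p = 0.0389) and 0.19 without both libraries numbered I (exact permutation p = 0.717). As deviations from the mean of each age, r was -0.40 (permutation p = 0.329 over all pairings). This p is only approximate, as the deviations were centred within each age but permuted across ages.

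Other features followed mir-34 far more closely than mir-449 did. Ranked by Pearson's r of log2 CPM over the 8 libraries among 163 features with a mean of at least 10 CPM, mir-449 was 128th in likeness to mir-34, and mir-34 was 121st in likeness to mir-449. The 5 features most like mir-34 were mir-193 (r = 0.95), mir-17 (r = 0.90), mir-7 (r = 0.84), mir-24 (r = 0.76) and mir-423 (r = 0.74). These are descriptions over 8 libraries that share depth and scaling, and the highest of many values is large by selection. Without both libraries numbered I the r was 0.90 for mir-193, 0.89 for mir-17, 0.82 for mir-7, 0.72 for mir-24 and 0.97 for mir-423.

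The scarce mir-193 stood at 32.5, 20.6, 24.1 and 17.5 CPM in libraries I to IV at 6 weeks and at 33.3, 19.7, 23.3 and 26.4 CPM at 26 weeks. Its highest library was number I at each age, as for mir-34. The family mir-17, whose cluster promotes proliferation in mammals, held 1593, 1054, 1403 and 1022 CPM at 6 weeks and 1391, 904, 1396 and 1347 CPM at 26 weeks. Its lowest libraries were number IV at 6 weeks and number II at 26 weeks, which were also the lowest of each age for mir-34. The family mir-7, abundant in neuroendocrine cells, stood at 1616, 632, 749 and 582 CPM at 6 weeks and at 1746, 565, 672 and 745 CPM at 26 weeks, and number I was far above the other libraries at both ages.

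The features most like mir-449 were pred_303 (r = 0.87), mir-642 (r = 0.75), mir-477 (r = 0.73), mir-31 (r = 0.70) and mir-549 (r = 0.62), again over 8 libraries. The predicted miRNA pred_303 was scarce, at 10.3, 15.5, 16.3 and 20.3 CPM in libraries I to IV at 6 weeks and at 9.13, 19.3, 29.6 and 21.6 CPM at 26 weeks. Its highest library was the 26-week library III, as for mir-449. Its lowest library at each age was number I, whereas mir-449 at 6 weeks was lowest in library III (237 CPM, beside 239 CPM in library I). Without both libraries numbered I, the r with mir-449 was 0.88 for pred_303 and 0.44 for mir-549. None of the 10 features named as alike was called between the ages, with adjusted p from 0.151 to 0.977 (edgeR, Benjamini-Hochberg), where 14.2% of all tested features were called. In the blocked fit mir-24 and mir-549 were each higher (adjusted p = 0.0407), or 2 of 10, near the 27.8% of all tested features called there.

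**Figure D3:**
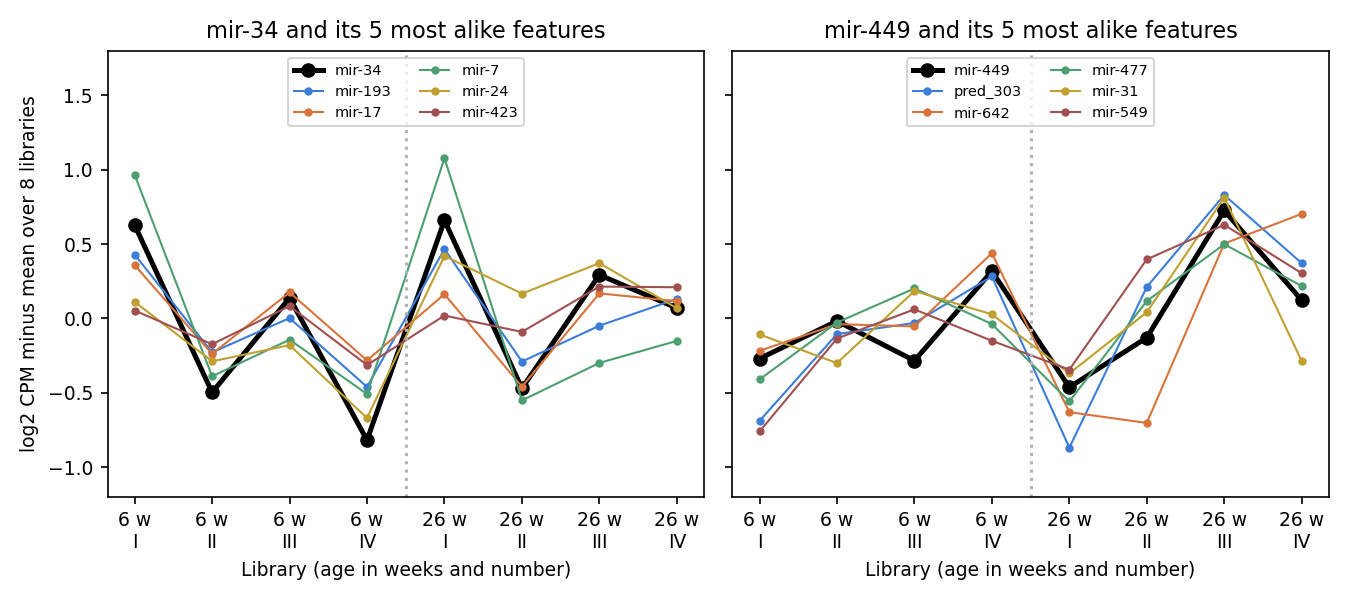
Log2 CPM minus its mean over the 8 libraries for mir-34 (left, black) and mir-449 (right, black) with the 5 features most alike to each by Pearson's r. The dotted line parts the ages; mir-34 and mir-7 peak in library I at both ages, whereas mir-449 and pred_303 are low there and peak in the 26-week library III.

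Markers of ciliated lining cells were read beside these levels. Of the list of mir-449, mir-34, mir-204 and mir-211 for multiciliated, ependymal and choroid plexus cells, 3 were tested and 0 were called, against a background of 14.2%. These 3 include mir-34 and mir-449 themselves, so only mir-204 is separate from the families under study. The third, mir-204, is abundant in choroid plexus and pigment epithelium and dominated the list. It stood at 4484, 5942, 5391 and 6305 CPM in libraries I to IV at 6 weeks and at 4899, 8816, 6981 and 7224 CPM at 26 weeks. Its lowest library was number I at each age, where mir-34 was highest. The level of mir-449 was also low there, at 239 CPM at 6 weeks (lowest 237 CPM, in library III) and 209 CPM at 26 weeks, its lowest. The log2 change of mir-204 was 0.34 ± 0.19 (edgeR, Benjamini-Hochberg adjusted p = 0.250). Summed over the list, mir-34 and mir-449 included, the younger libraries held 5302 to 6877 CPM and the older ones 5699 to 9350 CPM. In whole brain, the number of ciliated cells and the amount of miRNA per cell cannot be told apart.

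Epithelial tissue other than ciliated cells was represented by mir-8, the family name under which miR-200 miRNAs are counted in many catalogues, with mir-203 and mir-205 of surface epithelia. The family mir-8 stood at 779, 821, 999 and 231 CPM at 6 weeks and at 737, 515, 978 and 648 CPM at 26 weeks, lowest in the 6-week library IV, where mir-34 was also lowest. Its log2 change was 0.025 ± 0.40 (edgeR, Benjamini-Hochberg adjusted p = 0.975). The row named mir-200 was nearly empty at both ages, with 0 counts in all 4 younger libraries and 2, 0, 0 and 1 in the older libraries I to IV. Of the 3 tested epithelial members 0 were called, where 14.2% of all tested features were, with mir-205 at -0.81 ± 0.35 (adjusted p = 0.163). In the blocked fit, which called 27.8% of all tested features, mir-205 was lower (adjusted p = 0.0407). Summed over the list the younger libraries held 469 to 1252 CPM and the older ones 769 to 1089 CPM, and its part in the level of mir-34 was not tested.

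Some markers of other tissues were highest in the libraries numbered I, and others were not. The muscle family mir-1, named after its values were seen, held 85.0 CPM in the 6-week and 92.9 CPM in the 26-week library I, and at most 47.9 CPM in the others. The more abundant muscle family mir-133 did not share this at 6 weeks, with 1227, 1242, 1263 and 1073 CPM in libraries I to IV, and held 1507, 1295, 1141 and 1434 CPM at 26 weeks. In the retina and sensory organ list, mir-96 and mir-183 were highest in library I at both ages. They stood there at 18.4 and 491 CPM at 6 weeks and at 13.2 and 453 CPM at 26 weeks. Of the other members, mir-182 was highest there only at 26 weeks (4559 CPM) and mir-184 only at 6 weeks (317 CPM). The list summed to 3759 to 5462 CPM in the younger and 3777 to 5153 CPM in the older libraries. Its part in the level of mir-34 was not tested. The summed neuroendocrine list (mir-7 and mir-375) held 1076 to 1635 CPM in the younger and 696 to 2250 CPM in the older libraries, with library I highest at each age. Within it mir-375 of endocrine cells was at 19.2 CPM in the 6-week library I against 445 to 722 CPM in the other younger ones, and at 504 CPM in the 26-week library I against 23.5 to 133 CPM. The muscle list summed to 1107 to 1319 CPM in the younger and 1175 to 1604 CPM in the older libraries, and the liver family mir-122 was at 25.5 CPM or below in all libraries. Without both libraries numbered I the log2 change was 0.31 for mir-34 (edgeR, Benjamini-Hochberg adjusted p = 0.483) and 0.23 for mir-449 (adjusted p = 0.572), so neither was called without them. The neuron markers mir-124, mir-9, mir-128 and mir-132 summed to 141490 CPM or more in every library, and their age changes are given with the ageing-linked families.

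**Figure D4:**
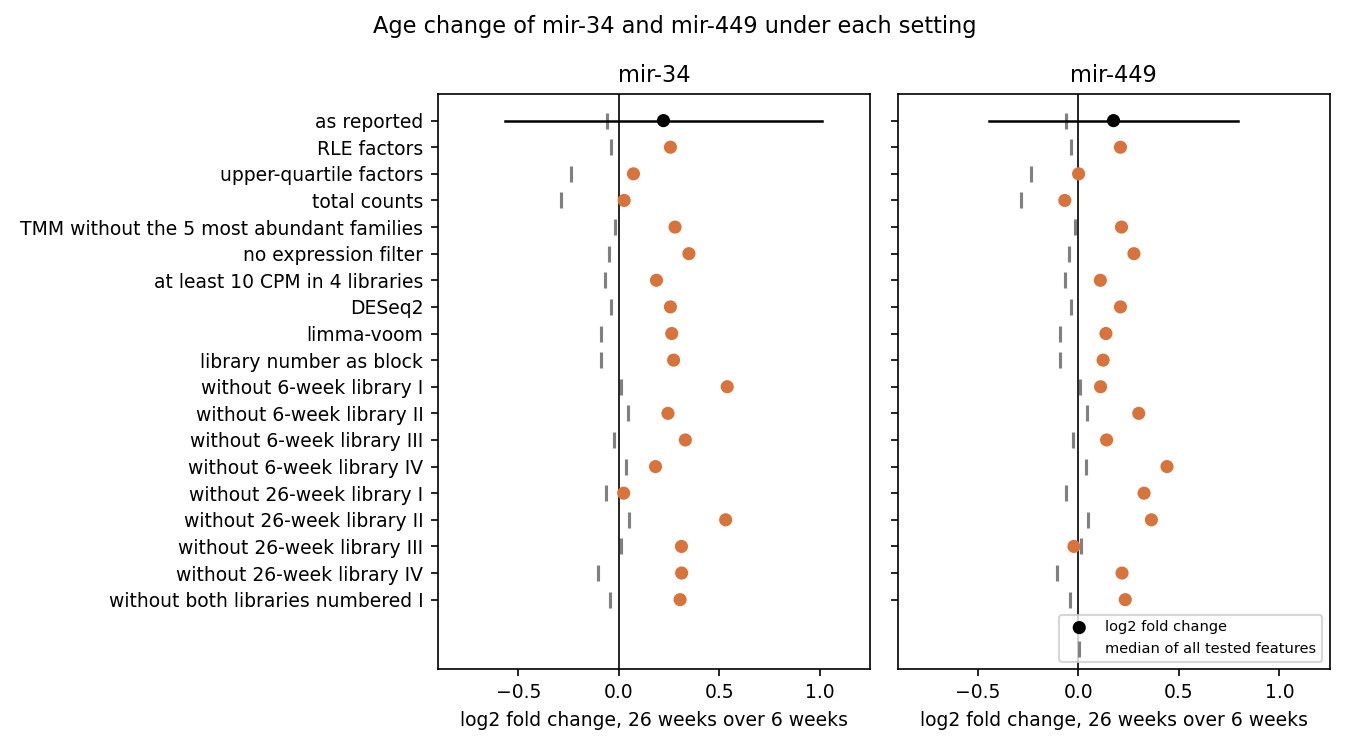
Log2 fold change of mir-34 (left) and mir-449 (right) from 6 to 26 weeks under the reported fit (black, with its 95% interval) and 18 alternatives (orange), with the median of all tested features as a grey tick. Values range from 0.024 to 0.54 for mir-34 and from -0.068 to 0.44 for mir-449, and none is called.

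The p53-linked families, which in mammals are induced or processed under p53, gave 0 calls among 9 tested members, against the background of 14.2% (edgeR, Benjamini-Hochberg). Their median log2 change was 0.21, beside -0.060 over all tested features. Both the count and the median include mir-34 itself, at 0.22, so neither is separate from its own result. Closest to the threshold was mir-145 of smooth muscle and pericytes, at 163 ± 20.1 CPM in the younger and 244 ± 29.0 CPM in the older libraries (n = 4 each, log2 0.58 ± 0.18, edgeR adjusted p = 0.0587, and 0.0287 in the blocked fit). The cell cycle family mir-16 stood at 5751 ± 373 and 4919 ± 406 CPM (n = 4 each, log2 -0.23 ± 0.11, edgeR adjusted p = 0.205). Under 2 other scalings mir-16 passed as lower in edgeR. These were total counts (log2 -0.45, adjusted p = 0.0241) and upper-quartile factors (log2 -0.40, adjusted p = 0.0360). Unadjusted, 29.2% of all tested features had an edgeR p under 0.05, and of the 9 p53-linked members this held for mir-145.

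Among families linked to ageing and senescence, 2 of 9 tested members rose and 1 fell, where 10.4% and 3.77% of all tested features did. The risers were mir-29 and mir-22, which promotes senescence in mammalian cells, and the family that fell was mir-217, which targets the deacetylase SIRT1 in mammals, as miR-34a does. The family mir-29 went from 643 ± 61.2 to 2078 ± 280.0 CPM, mir-22 from 14417 ± 1162 to 24156 ± 3868 CPM and mir-217 from 1264 ± 236 to 764 ± 105 CPM (n = 4 each). Their log2 changes were 1.69 ± 0.15, 0.74 ± 0.13 and -0.73 ± 0.18 (edgeR, Benjamini-Hochberg adjusted p = 2.14e-04, 0.0109 and 0.0212). The call of mir-217 was lost with no filter on low counts (edgeR, adjusted p = 0.0868) and on leaving out the 6-week library II (adjusted p = 0.115) or III (0.0716) or the 26-week library II (0.0652) or III (0.0663), with the same direction throughout. Over the 9 tested members the median was -0.0095. In the blocked fit let-7, the developmental timing family, was also higher (adjusted p = 0.0125). Beside these, some markers of other cell types were higher at 26 weeks, as were 10.4% of all tested features. They were both of the oligodendrocyte list and 3 of 3 of the microglia and leucocyte list. They also included mir-451, 1 of 2 of the erythroid list, and 2 of 4 of the neuron list (mir-124 at 1.90-fold and mir-132 at 1.63-fold). Not called were mir-144 (log2 0.058 ± 0.16), mir-9 (0.045 ± 0.12) and mir-128 (-0.17 ± 0.093), with edgeR adjusted p of 0.845, 0.845 and 0.250. Summed over the list, oligodendrocyte markers held 8817 to 10347 CPM in the younger and 18661 to 26728 CPM in the older libraries, and microglia and leucocyte markers 244 to 264 and 369 to 529 CPM. The erythroid list held 754 to 973 and 1152 to 1311 CPM, and the neuron list, whose ages overlapped, 141490 to 161199 and 150824 to 164153 CPM. Of the vessel wall list 0 of 3 were called, where 14.2% of all tested features were. It held 9022 to 13193 and 10663 to 18556 CPM. In the blocked fit, which called 27.8% of all tested features, 2 of its 3 members were higher. Of the retina and sensory organ list 0 of 4 were called. No member of the neuroendocrine, muscle or liver list was called either. The part of these markers in the changes of mir-29, mir-22 and mir-217 was not tested. The lists were drawn up with earlier results of these libraries known, so their counts are descriptions.

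**Figure D5:**
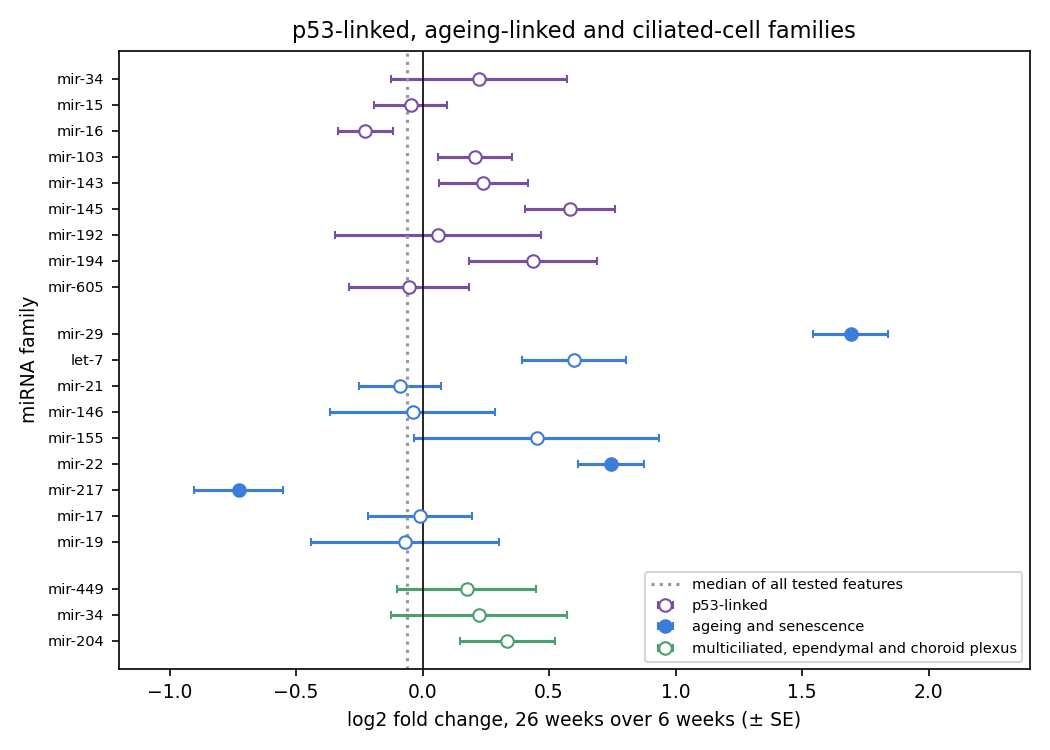
Log2 fold change from 6 to 26 weeks (± SE) of the p53-linked, ageing-linked and ciliated-cell families, with filled points for an adjusted p under 0.05 and a dotted line at the median of all tested features. Only mir-29, mir-22 and mir-217 are filled; mir-34 and mir-449 lie at 0.22 and 0.17 with SE of 0.35 and 0.27.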

How the data were processed

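The labels' protocols name the TruSeq kit for small RNA. Reads were handled with SAMtools 1.3.1-9, BWA 0.7.12-r1039, Trimmomatic 0.36 and bcl2fastq 1.8.4, per the submitters' processing notes. For the build, annotation, counting tool and multiply mapped reads, the settings were not given in the sources used here. The authors deposited raw counts per family and library, with totals of 2992917 to 5715409.

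Families and lists were chosen with earlier results of these data known. Age was tested in R 4.3.3 with edgeR 4.0.16 (quasi-likelihood, TMM, filterByExpr, all 8 libraries, no covariate, two-sided) and Benjamini-Hochberg adjustment at 0.05; SE is the absolute log2 change over the square root of F, and intervals rest on it. Counting errors cover counting alone. Log2 CPM used a prior count of 2 and the ratio 0.5. The fit was checked on simulated data. Alternatives were other scalings and filters, DESeq2 1.42.0, limma-voom (limma 3.58.1), the library number as a block, and leaving out libraries. Features picked by rule were both families, the 5 most alike to each (mean of 10 CPM or more), and members of 13 lists. In each list these were the called members and the 2 with the smallest p. Not all of these are given values here. Outside that rule, mir-1, mir-8, mir-200, mir-9, mir-128, let-7, mir-182 and mir-184, and the values of mir-133 by library, were chosen after being seen. Across features, deviations from the age means correlated by 0.287 to 0.528 between libraries of the same number and by at most 0.234 between others. Values for the same number lay above the limit of 0.1 for pairing, but so did some for different numbers. This limit thus does not show pairing. The labels name no covariate, so the number entered only as an alternative.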

Additional observations from a re-analysis of the deposited data

Results flagged for a closer look

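Among 76 groups of 4 libraries, 4 held a library that stood apart by Dixon's test. In each of the 4, its gap to its nearest neighbour, divided by the range of the group, exceeded the critical value for 4 samples. The groups covered each feature picked by rule, the log2 ratio and the summed level at each age. Features outside that rule, among them mir-1 and mir-8, were not tested for this. Chance gives about 1 in 20 groups, or 3.8. None of the 4 was a group of mir-34, mir-449, their ratio or their sum. The proliferation-linked mir-17, the second most alike to mir-34, stood at 9.82 on the log2 CPM scale in the 26-week library II, with the other older libraries at 10.40 to 10.45; mir-34 was also lowest in that library among the older ones. The endocrine family mir-375 was at 4.30 in the 6-week library I, where mir-34 was highest, and between 8.80 and 9.50 in the other younger libraries. At 26 weeks the relation was the opposite, with library I highest for both mir-375 (504 CPM) and mir-34 (591 CPM). The neuronal family mir-124 was at 13.41 in the 26-week library III, where mir-449 was highest, with the others at 12.58 to 12.65. The lymphocyte family mir-150 was at 5.48 in the 6-week library I, with the others at 4.78 to 4.89.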

How the results depend on the processing

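Neither family was called under any of 18 alternatives each, with edgeR, DESeq2 or limma-voom Benjamini-Hochberg adjusted p from 0.293 to 0.982 for mir-34 and from 0.374 to 0.998 for mir-449. Total counts moved the median of all tested features by -0.23 and upper-quartile factors by -0.18; mir-449 then stood at -0.068 and 0.00059, and mir-34 at 0.027 and 0.073. Relative to that median mir-34 was at 0.31 with either, and mir-449 at 0.22 and 0.24, close to 0.28 and 0.23 as reported. Leaving out 1 library gave 0.024 to 0.54 for mir-34 and -0.023 to 0.44 for mir-449, whose lowest value was without the 26-week library III. The same fits called 23 to 47 features, where 212 were tested in the reported fit. Of the 9 members of each list tested there, they called 0 to 1 p53-linked and 2 to 4 ageing-linked ones (mir-217 lost or let-7 gained). They gave -0.21 to 0.47 for the change of the log2 ratio and -0.79 to -0.12 for the correlation of the families. Most calls, 47, came without the 26-week library I. With the number as a block 59 features were called (35 higher, 24 lower), without both libraries numbered I 50, and the correlation was then 0.19, against 30 calls and -0.33; the cause was not tested. Under the block mir-34 and mir-449 kept their sign and, like their ratio, were still not called. There was no call to lose, as none was called in the reported fit. For the ratio the sign could not change, because the mean difference over pairs is the same by construction. Its exact sign-flip p was 0.625, where 4 pairs can give 0.125 at the smallest. The p53-linked list had 1 call in place of 0 with RLE, no filter, TMM that leaves out the 5 most abundant families, DESeq2, limma-voom, the block, without the 26-week library II or III, and without both libraries I (mir-145 in each), and with upper-quartile and total-count scaling (mir-16, lower). These fits called 26 to 59 features in all, where 212 were tested as reported. The 1 call among 9 members is thus a description and not a result about the list. The lowest count of either family was 691, with a counting error of 3.80%.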
